A study of Mus musculus with 8 samples.

Results

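The genes described here are 35 genes of T cells, listed by symbol, out of 54838 genes in the count tables. They encode chains of the T cell receptor, co-receptors, signalling proteins, cytokine and homing receptors, cytotoxic proteins and regulatory proteins. All 35 were matched, and 34 had enough counts to be tested in a model across 17839 genes. The one left out, Gzma, was at 0 counts in the library labelled iDKO replicate 2 at 25 DPI and in control replicate 1 at 52 DPI.

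The libraries came from epidermis of mouse skin freed with trypsin, from Ovol1/2 iDKO mice and control mice, at 25 DPI and at 52 DPI. Each of these 4 groups had 2 biological replicates. The labels do not spell out iDKO or DPI, the alleles, the Cre driver, the inducing agent, or the age or strain of the mice, nor whether the controls carry any of them. The OVOL proteins are transcription factors of epithelial cells. Counted over the whole gene, Ovol1 and Ovol2 were higher in iDKO than in control in all 4 pairs of libraries, at 1.04 to 5.61 times the control, so whole-gene counts do not check the deletion and the groups are called here by their labels. Levels are given as normalized CPM, counts scaled for library size. The Y-linked gene Ddx3y had 0 CPM in each 52 DPI library, against 39.4 to 113 CPM in those of 25 DPI. Xist, made from the inactive X chromosome, had 131 to 1139 CPM in each 52 DPI library, against 0.12 to 0.34 CPM. In comparisons of 52 with 25 DPI, sex and time cannot be told apart. The library totals were 9824307 to 50711381 counts. The replicate 2 libraries were strand-specific and the replicate 1 libraries were not, so libraries are set against each other mainly in pairs of the same time and replicate number.

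Mouse epidermis normally holds a dense network of dendritic epidermal T cells, which carry a gamma-delta T cell receptor of nearly fixed sequence and are held by contacts with keratinocytes. Smaller numbers of alpha-beta T cells, CD8+ and CD4+, enter the epidermis from the blood and some stay as resident memory cells. Every T cell receptor is carried to the surface by the CD3 chains, signals through the kinases Lck and Zap70 and the adaptor Lat, and in cytotoxic cells releases perforin and granzymes. In RNA from whole epidermis, fewer cells of a type and less RNA per cell cannot be told apart.

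Most of the 35 genes were lower in iDKO than in control at 25 DPI, and nearly all were higher at 52 DPI. Relative to control, 33 members were lower, 1 higher and 1 at 0 in the replicate 1 pair at 25 DPI, with a median ratio of 0.295 among members with counts in both libraries. In the replicate 2 pair at 25 DPI, 24 were lower, 10 higher and 1 at 0, with a median ratio of 0.733. At 52 DPI, 33 were higher, 1 lower and 1 at 0 in the replicate 1 pair, with a median ratio of 1.285. All 35 were higher in the replicate 2 pair at 52 DPI, with a median ratio of 5.15. Of the 33 members with counts in all 8 libraries, 23 were lower in both pairs at 25 DPI and higher in both at 52 DPI, which is 69.7%, against 8.21% of the 16174 tested genes with counts in all 8.

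**Figure D1:**
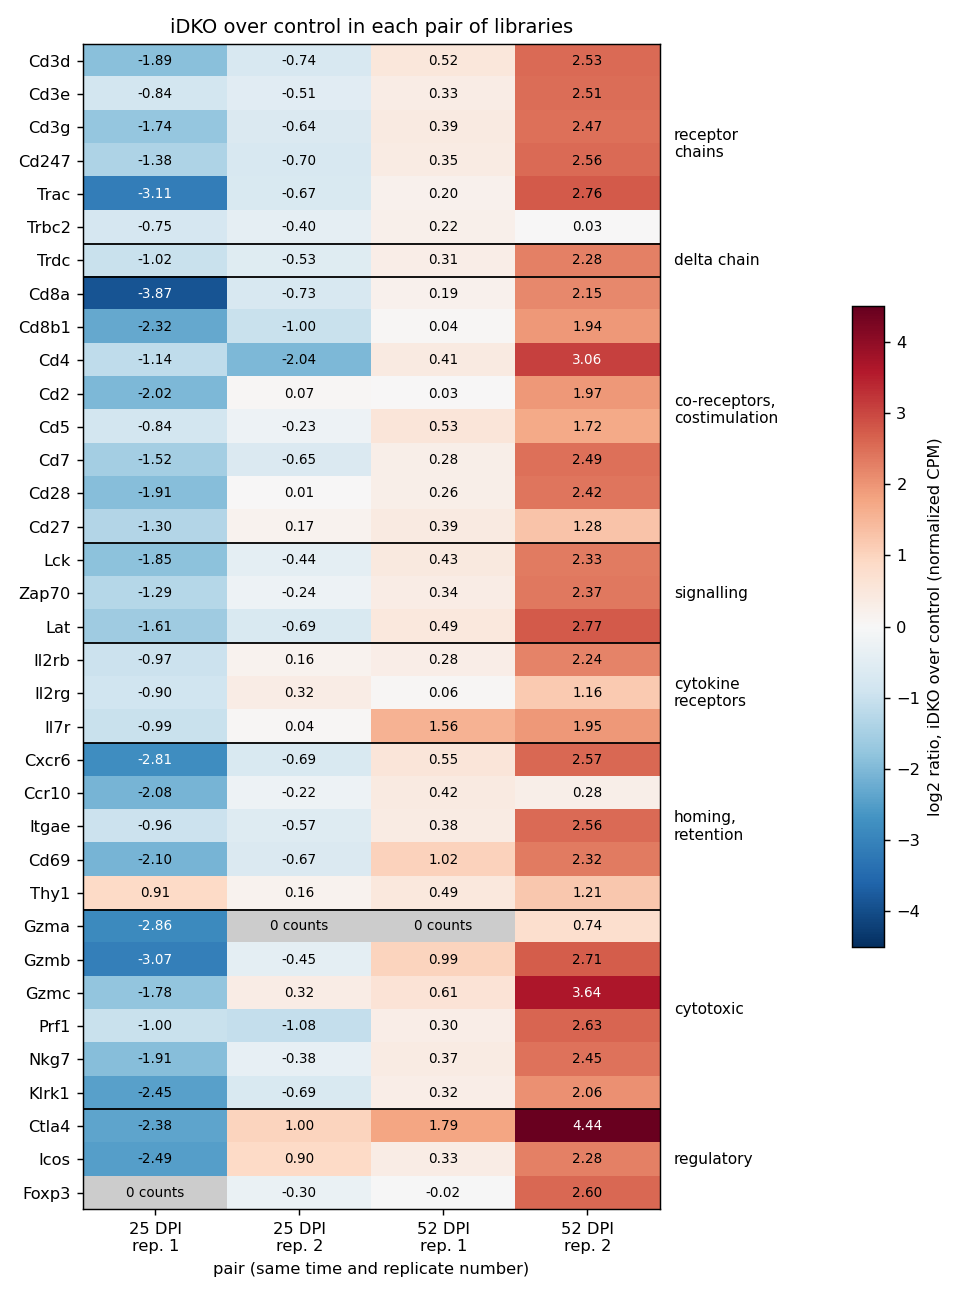
Each cell gives the log2 ratio of normalized CPM, iDKO over control, for 1 of the 35 genes (rows, grouped by role) in 1 library pair matched for time and replicate number (columns); grey cells have 0 counts in a library. The columns differ in size: most cells are below 0 at 25 DPI, most deeply in replicate 1 (median ratio 0.295), and above 0 at 52 DPI, most strongly in replicate 2 (median ratio 5.15).

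The differences were largest in the pairs that held 2 outlying libraries. Of the 35 members, 22 had their highest level in control replicate 1 at 25 DPI and 12 in iDKO replicate 2 at 52 DPI. The summed level of the 35 genes was 638.1 and 403.4 CPM in iDKO at 25 DPI, against 1959 and 475.4 CPM in control, replicate 1 first. At 52 DPI it was 803.1 and 1407 CPM in iDKO, against 622.6 and 319.8 CPM in control. At 25 DPI the levels of the groups overlapped, and at 52 DPI both iDKO libraries were above both control libraries.

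Both libraries that stood apart also differed from the rest in genes of other cells. Control replicate 1 at 25 DPI had a summed level of 5 melanocyte markers of 363.1 CPM, against 29.5 to 45.2 CPM in the other 7 libraries, and of 5 erythroid markers of 110.9 CPM, against 0.63 to 18.3 CPM. Its 5 Langerhans cell markers summed to 1397 CPM and its 5 keratinocyte markers to 22740 CPM. In iDKO replicate 2 at 52 DPI the keratinocyte markers summed to 21740 CPM, against 32610 to 39750 CPM in the other 6 libraries. There the 5 fibroblast markers summed to 106.8 CPM, of which Dcn made up 84.4 CPM, against 15.7 CPM in its paired control; in iDKO replicate 2 at 25 DPI they were higher still, at 117.5 CPM. The erythroid markers summed to 18.3 CPM there. Markers of other lymphocytes were low throughout: the 5 NK cell markers summed to 0.62 to 4.77 CPM, with Ncr1, Klra8 and Eomes at or near 0, and the 5 B cell markers to 0.34 to 6.82 CPM, with Pax5 at 0 in all 8 libraries. The summed NK cell markers had the directions of the summed T cell genes, at 0.57 and 0.675 times the control at 25 DPI and 1.85 and 6.09 times at 52 DPI. In the replicate 2 libraries Klrb1c held 123 own-strand counts, against 3 to 8 for each other NK cell marker. The 5 mast cell markers summed to 28.8 CPM in iDKO replicate 2 at 52 DPI, all of it Kit, which melanocytes also carry, against 3.65 to 8.98 CPM in the other 7 libraries; Cpa3, Mcpt4 and Tpsb2 were at 0 in all 8. The 5 macrophage markers summed to 51.4 and 43.9 CPM in iDKO at 52 DPI, against 25.3 and 25.2 CPM in control, so they were higher in both pairs in which the T cell genes were higher. Their values at 25 DPI were 6.16 and 16.5 CPM in iDKO, against 11.6 and 6.33 CPM in control. Counted on the genes' own strand in the replicate 2 libraries, Csf1r had 1195 counts, Adgre1 394, Lyz2 92, C1qa 48 and Mrc1 1. Of the counts at Csf1r in these libraries, 43.9% were on its own strand. The part of all these cells in the results on T cell genes was not tested.

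**Figure D2:**
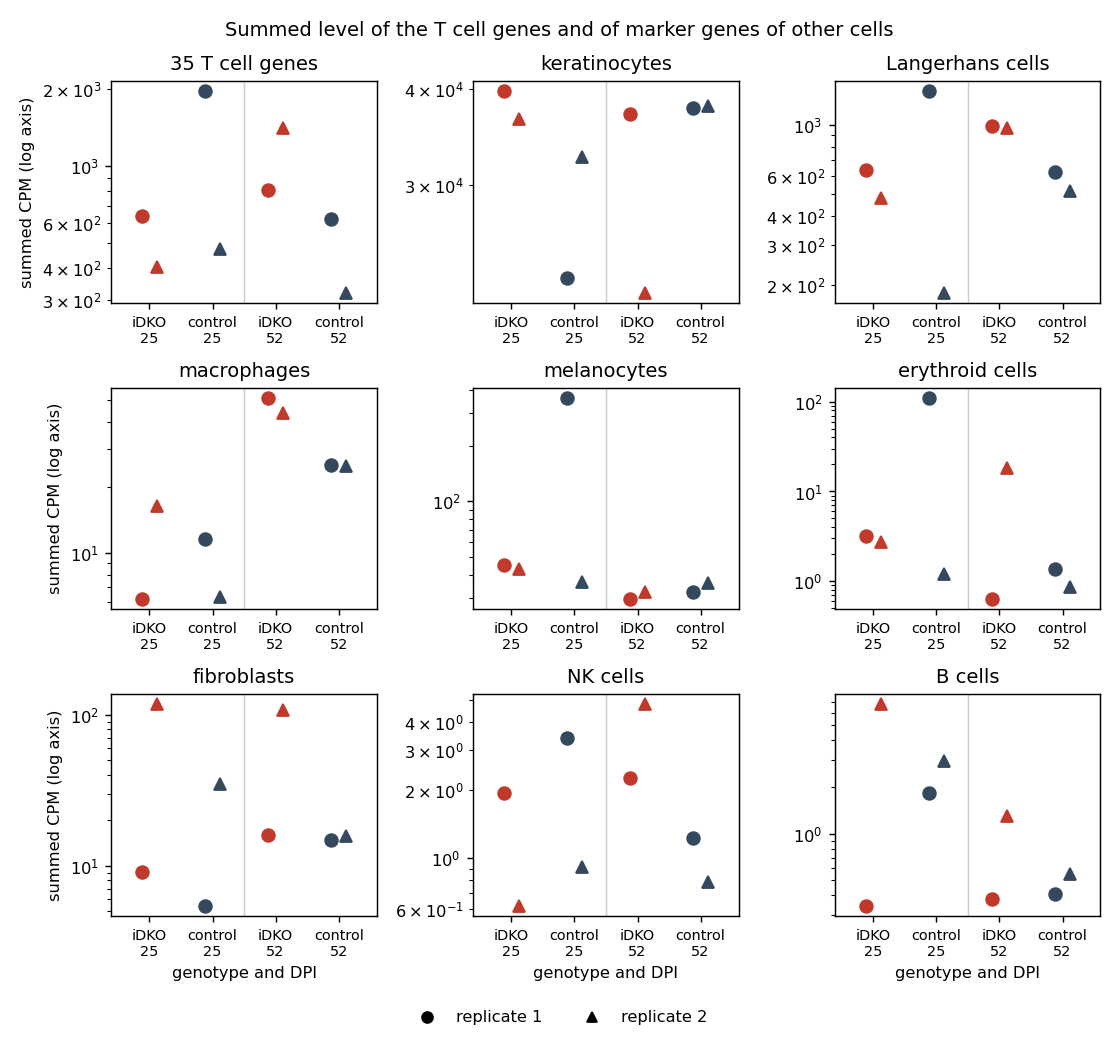
Summed CPM (log axis) of the 35 T cell genes and of 5 markers each for 8 other cell types, in each library; circles are replicate 1 and triangles replicate 2, with iDKO in red and control in dark blue. Control replicate 1 at 25 DPI is highest for the T cell genes (1959 CPM), melanocyte markers (363.1 CPM) and erythroid markers (110.9 CPM), and iDKO replicate 2 at 52 DPI is second for the T cell genes (1407 CPM).

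With 1 mean per group, edgeR's quasi-likelihood test called 0 of 17839 genes, or 0%, in any of the 6 comparisons at an adjusted p under 0.05, members included. In this fit the median log2 fold change of the 34 tested members, iDKO over control, was -1.34 at 25 DPI, with 1 higher and 33 lower, beside -0.03 over all tested genes. At 52 DPI it was 1.28, with 34 higher and 0 lower, beside -0.01 over all tested genes. Unadjusted p values were under 0.05 for 2 members at each time, against 75 genes in all at 25 DPI and 143 at 52 DPI. Without control replicate 1 at 25 DPI the median at 25 DPI was 0.25, with 20 members higher and 14 lower, so the median changed sign without that library. That fit had no block, so it set both iDKO libraries against control replicate 2 alone, across replicate numbers and strandedness. The replicate 2 pair itself had 24 members lower and 10 higher, with a median ratio of 0.733. The direction at 52 DPI held without any 1 library, with medians of 0.78 to 2.06 and 31 to 34 members higher. With the replicate number within time as a block, edgeR and DESeq2 called 0 members at either time, although DESeq2 called 0.0561% of all genes lower at 25 DPI and 0.129% higher at 52 DPI.

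The groups did not overlap in 28 of 35 members at 52 DPI, with iDKO above control in each, which is 80%, beside 11.9% of all tested genes. None was below, beside 10.2% of all tested genes. At 25 DPI iDKO was below control without overlap in 8 members, which is 22.9%, beside 5.15% of all tested genes, and above in 0, beside 5.39%. The 8 were Cd247, Cd8a, Cd4, Zap70, Ccr10, Itgae, Prf1 and Klrk1. Of the counts at Ccr10 in the replicate 2 libraries, 14.9% were on its own strand, so its place here is uncertain. The 7 members that overlapped at 52 DPI were Trbc2, Cd8b1, Cd27, Il2rg, Ccr10, Thy1 and Foxp3. Cd27 and Foxp3 are uncertain too, with 42.8% and 4.39% of their counts in the replicate 2 libraries on their own strand.

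The difference between the genotype effects at 52 and 25 DPI was above 0 in all 34 tested members, with a median of 2.67 on the log2 scale, beside 0.02 over all tested genes. Sex and time cannot be told apart in this difference either, since Ddx3y and Xist separated the 52 DPI from the 25 DPI libraries. In edgeR 9 members had an unadjusted p under 0.05, of 139 genes in all, and 0 were called. DESeq2 with the replicate number within time as a block called 3 members, all higher, among 13 genes called higher, or 0.0729% of those tested. They were Cd69, at 3.04 (SE 0.67, DESeq2 adjusted p = 0.00681), Cxcr6, at 3.29 (SE 0.83, adjusted p = 0.0313), and Cd3d, at 2.82 (SE 0.73, adjusted p = 0.0415). All 3 calls were lost without control replicate 1 or iDKO replicate 1 at 25 DPI, with DESeq2 adjusted p values of 0.14 to 0.512. They were also lost without control replicate 2 or iDKO replicate 2 at 52 DPI, where the adjusted p was 1 for each. The direction was the same in these 4 fits, at 1.81 to 2.39 on the log2 scale. With the block, a library without its partner adds nothing on genotype, so leaving out either library of a pair gave nearly the same fit. Cd3d, for example, was at 2.25 without control replicate 1 at 25 DPI and at 2.24 without iDKO replicate 1. With 1 of the other 4 libraries left out, the 3 estimates ran from 3.38 to 4.35.

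The CD3 chains Cd3d, Cd3e, Cd3g and Cd247 (CD3 zeta) form the signalling part of every T cell receptor. Cd3g, Cd3d and Cd3e lie side by side on chromosome 9 of GRCm38 between 44969572 and 45009627. Cd3e was at 40.3 and 16.3 CPM in iDKO at 25 DPI, against 72.2 and 23.3 CPM in control, with 75.2 and 99.6 CPM in iDKO at 52 DPI, against 59.8 and 17.5 CPM in control. In each pair iDKO was below control at 25 DPI and above it at 52 DPI, and at 25 DPI the groups overlapped because replicate 1 libraries were the higher ones. Cd3g, the most abundant of the 4 when strand is ignored, was at 92.5 and 21.4 CPM in iDKO at 25 DPI, against 309 and 33.2 CPM in control, with 89.3 and 143 CPM in iDKO at 52 DPI, against 68.2 and 25.8 CPM in control. Ignoring strand leaves out reads that Cd3e shares with a gene on the other strand. The 4 chains had nearly the same ratio at 52 DPI, of 1.26 to 1.44 in replicate 1 and 5.54 to 5.89 in replicate 2. At 25 DPI they spread from 0.27 for Cd3d to 0.557 for Cd3e in replicate 1, and from 0.6 to 0.702 in replicate 2.

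Cd3d is the receptor chain called by DESeq2 in the paired fit, and its promoter is shown as RefSeq gives it (GRCm38.p6, chr9:44981536-44981835, plus strand, 250 bases before to 50 after the start), with the letters ACTTCCT, the reverse complement of the ETS motif AGGAAGT, in capitals.
Cd3d: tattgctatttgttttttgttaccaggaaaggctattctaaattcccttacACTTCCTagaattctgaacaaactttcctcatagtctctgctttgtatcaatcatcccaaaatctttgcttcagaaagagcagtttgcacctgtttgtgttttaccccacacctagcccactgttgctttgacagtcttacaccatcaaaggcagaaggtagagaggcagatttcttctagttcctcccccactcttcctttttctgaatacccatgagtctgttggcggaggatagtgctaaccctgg
The match starts 199 bases before the start. RefSeq promoters were matched for 21 of the 35 genes, 25 promoters in all, and 9 of these hold AGGAAGT on either strand, beside 9.4% of 32851 mouse promoters of the same length.

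The alpha and beta chains Trac and Trbc2 belong to alpha-beta T cells. Trac was at 6.73 and 2.32 CPM in iDKO at 25 DPI, against 57.9 and 3.69 CPM in control, with 10.7 and 12.8 CPM in iDKO at 52 DPI, against 9.38 and 1.88 CPM in control. Control replicate 1 at 25 DPI held over 4 times the level of any other library. Trbc2 was at 57.7 and 8.49 CPM in iDKO at 25 DPI, against 96.8 and 11.2 CPM in control, with 20.7 and 12.7 CPM in iDKO at 52 DPI, against 17.8 and 12.5 CPM in control. It was the one receptor chain without a large ratio in the replicate 2 pair at 52 DPI, at 1.02, where Trac was at 6.78 and the CD3 chains at 5.54 or more.

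Counts of Trbc2 are uncertain because its sister gene Trbc1 is nearly the same. Their first constant exons share 374 of 375 bases, or 99.7%, in GRCm38. The 120 bases around the differing one are printed with that base in capitals, from chr6:41538417-41538536 for Trbc1 and chr6:41546929-41547048 for Trbc2, both on the plus strand.
Trbc1: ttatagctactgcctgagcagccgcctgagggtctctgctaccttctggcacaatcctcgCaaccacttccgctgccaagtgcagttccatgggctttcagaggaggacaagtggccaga
Trbc2: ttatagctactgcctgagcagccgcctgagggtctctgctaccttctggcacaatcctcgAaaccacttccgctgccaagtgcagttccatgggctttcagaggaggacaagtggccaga
A short read from most of this exon has no base that tells the genes apart. Trbc1 was at 10.6 and 3.99 CPM in iDKO at 25 DPI, against 41.9 and 6.67 CPM in control, with 12.8 and 17.3 CPM in iDKO at 52 DPI, against 10.05 and 4.39 CPM in control. Its ratio in the replicate 2 pair at 52 DPI was 3.95, unlike that of Trbc2.

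The delta chain Trdc, the constant part of the gamma-delta receptor, lies on chromosome 14 between 54142851 and 54148868. It was at 28.7 and 14.2 CPM in iDKO at 25 DPI, against 58.2 and 20.5 CPM in control, with 48.4 and 86.1 CPM in iDKO at 52 DPI, against 39.0 and 17.7 CPM in control. At 52 DPI both iDKO libraries were above both control libraries, with a ratio of 4.86 in the replicate 2 pair. These counts leave out reads that also overlap genes on the other strand, since Trdc shares 207 exon bases with Trdv5 and 96 with Gm43434. Counted on its own strand in the replicate 2 libraries, Trdc had 694 counts in iDKO against 1825 in control at 25 DPI, a normalized ratio of 0.689, and 2229 in iDKO against 353 in control at 52 DPI, a ratio of 5.25.

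Trdv4 and Tcrg-V5 had the same direction as Trdc in each pair. Trdv4, the V segment of the dendritic epidermal T cell receptor's delta chain, was at 19.3 and 9.36 CPM in iDKO at 25 DPI, against 44.5 and 15.5 CPM in control, with 37.4 and 73.8 CPM in iDKO at 52 DPI, against 30.7 and 14.3 CPM in control. It held 98.3% to 100% of the counts of the 5 annotated delta V segments in every library. Tcrg-V5, the matching gamma V segment, held 69.5% of gamma V counts in control replicate 1 at 25 DPI (335 of 482 counts, exact binomial 95% interval 65.2% to 73.6%) and 79.8% to 87.1% in the other 7 libraries. The intervals, which cover counting error only, show a lower share in that library than in control replicate 2 at 25 DPI (434 of 544 counts, 76.2% to 83.1%). Of 13 further receptor and gamma-delta genes, among them Trbc1, 12 were tested and edgeR called 0. At 25 DPI 3 were higher and 9 lower, and at 52 DPI all 12 were higher, with a median log2 fold change of 1.42.

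The further gamma-delta genes with the smallest unadjusted p at 52 DPI were Cd163l1, Blk and 5830411N06Rik, which are known from gamma-delta T cells that make IL-17, as are Tcrg-V6 and Sox13 from the same list. Cd163l1 was at 2.48 and 18.2 CPM in iDKO at 52 DPI, against 1.67 and 0.627 CPM in control (edgeR log2 fold change 3.14, SE 1.07, unadjusted p = 0.0198, adjusted p = 1). Blk, a Src family kinase, was at 0.879 and 6.21 CPM in iDKO, against 0.482 and 0.313 CPM in control, and 5830411N06Rik, a scavenger receptor gene, at 5.06 and 8.5 CPM, against 1.71 and 0.47 CPM. The groups did not overlap in these 3 genes, and the ratio in the replicate 2 pair was 18.1 to 29.1, above the 5.54 to 5.89 of the CD3 chains. These ratios rest on control levels of 0.313 to 0.627 CPM in 1 library, and their counting error is not given here. Tcrg-V6 was at 0.408 and 1.7 CPM in iDKO at 52 DPI, against 0.482 and 0 CPM in control, so iDKO was the lower library in the replicate 1 pair. Sox13, a transcription factor, was at 5.9 and 17.2 CPM in iDKO at 52 DPI, against 4.11 and 7.91 CPM in control, where the groups overlapped, and its ratio of 2.17 in the replicate 2 pair was below those of the CD3 chains.

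**Figure D3:**
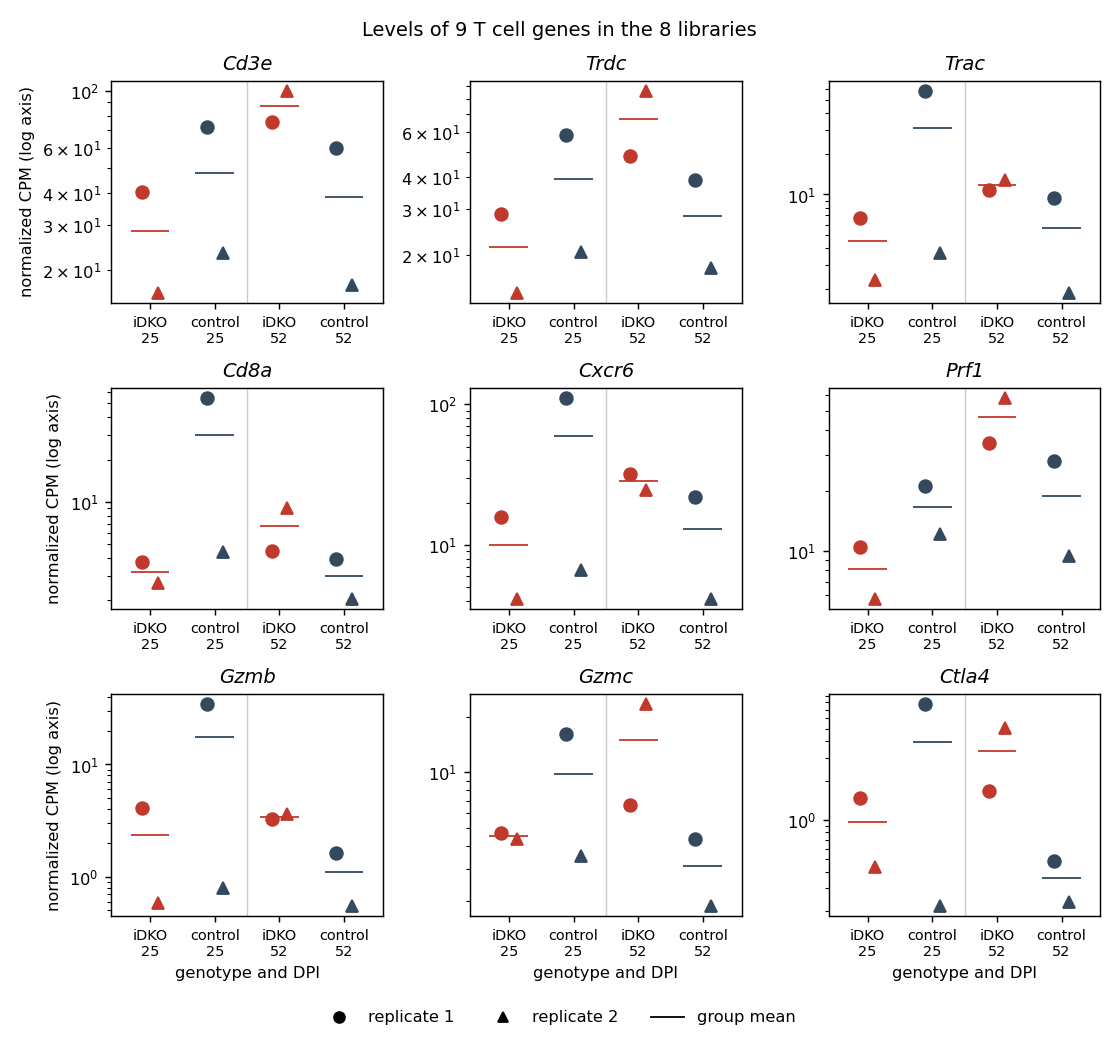
Normalized CPM (log axis) of 9 of the T cell genes in each of the 8 libraries, with iDKO in red, control in dark blue, circles for replicate 1, triangles for replicate 2 and lines for group means. At 52 DPI both iDKO libraries are above both control libraries in all 9 genes, while at 25 DPI control replicate 1 is far above the rest for Trac, Cd8a, Cxcr6 and Gzmb.

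The CD8 chains Cd8a and Cd8b1, neighbours on chromosome 6, mark cytotoxic T cells. Cd8a was at 3.76 and 2.65 CPM in iDKO at 25 DPI, against 55.0 and 4.41 CPM in control, with 4.49 and 9.03 CPM in iDKO at 52 DPI, against 3.93 and 2.04 CPM in control. Its ratio of 0.0685 in the replicate 1 pair at 25 DPI was the lowest of any member, beside 0.601 in the replicate 2 pair. In the model at 25 DPI its log2 fold change was -3.21 (edgeR, SE 1.12, unadjusted p = 0.0222, adjusted p = 0.9999). Cd8b1 was at 13.3 and 0.871 CPM in iDKO at 25 DPI, against 66.4 and 1.75 CPM in control, with 4.43 and 3.01 CPM in iDKO at 52 DPI, against 4.3 and 0.784 CPM in control, where the groups overlapped.

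Cd4, the co-receptor of helper and regulatory T cells, is also found on Langerhans cells and macrophages. It was at 0.798 and 1.74 CPM in iDKO at 25 DPI, against 1.77 and 7.15 CPM in control, with 2.07 and 6.54 CPM in iDKO at 52 DPI, against 1.56 and 0.784 CPM in control. It was the one member with its highest level in control replicate 2 at 25 DPI, and the groups overlapped at neither time. Beside it, the Langerhans cell markers summed to 635 and 480.1 CPM in iDKO at 25 DPI, against 1397 and 185.4 CPM in control, and to 986.2 and 963.8 CPM in iDKO at 52 DPI, against 619.1 and 515.1 CPM in control. In the replicate 2 pair at 25 DPI these markers were at 2.59 times the control and Cd4 at 0.244 times. Their part in the levels of Cd4 was not tested.

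The costimulatory and surface receptors were higher in iDKO in both pairs at 52 DPI, with ratios of 2.42 for Cd27 to 8.35 for Cd4 in the replicate 2 pair when strand is ignored. On its own strand Cd27 had 38 counts in iDKO against 4 in control in that pair, a normalized ratio of 7.9, so its place in this range is uncertain. Cd7, an abundant surface protein of epidermal T cells, was at 34.6 and 15.8 CPM in iDKO at 25 DPI, against 99.2 and 24.9 CPM in control, with 44.2 and 96.7 CPM in iDKO at 52 DPI, against 36.4 and 17.2 CPM in control. Cd28, which gives the second signal for activation, was at 5.24 and 10.1 CPM in iDKO at 52 DPI, against 4.37 and 1.88 CPM in control, and the adhesion receptor Cd2 at 12.1 and 20.2 CPM, against 11.9 and 5.17 CPM. Of the 8 genes of this group all were higher in both pairs at 52 DPI, with median ratios of 1.21 and 4.17. At 25 DPI all 8 were lower in the replicate 1 pair, with a median ratio of 0.308, and 5 of 8 in the replicate 2 pair, where Cd2, Cd28 and Cd27 were at 1.01 to 1.12. Cd5, a brake on receptor signalling, had ratios of 0.558 and 0.855 at 25 DPI and of 1.45 and 3.29 at 52 DPI.

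Lck and Zap70 are the first 2 kinases of receptor signalling, and Lat is the adaptor they phosphorylate. Lck was at 14.8 and 9.29 CPM in iDKO at 25 DPI, against 53.3 and 12.6 CPM in control, with 28.6 and 31.9 CPM in iDKO at 52 DPI, against 21.2 and 6.35 CPM in control. Lat was at 13.5 and 6.39 CPM in iDKO at 25 DPI, against 41.2 and 10.3 CPM in control, with 11.4 and 30.9 CPM in iDKO at 52 DPI, against 8.16 and 4.54 CPM in control. All 3 genes were lower in iDKO in both pairs at 25 DPI and higher in both at 52 DPI, with no overlap between groups at 52 DPI. The ratios of Zap70 at 25 DPI, of 0.409 and 0.845, were the closest to 1 of the 3.

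A longer list of 37 genes of T cell signalling and transcription was less uniform. Of its 34 tested genes 7 were higher and 27 lower at 25 DPI, with a median log2 fold change of -0.67, and 29 were higher and 5 lower at 52 DPI, with a median of 1.19; 0 were called. The receptor phosphatase Ptprc (CD45) was at 74.4 and 193 CPM in iDKO at 52 DPI, against 61.5 and 44.4 CPM in control, and the transcription factor Lef1 at 1.85 and 19.7 CPM, against 1.11 and 0.705 CPM (edgeR log2 fold change 3.54, SE 1.43, unadjusted p = 0.0401, adjusted p = 1). Several of the list are also made by keratinocytes: Gata3 was at 456 and 133 CPM in iDKO at 52 DPI, against 520 and 212 CPM in control, and Bcl11b at 469 and 237 CPM, against 509 and 352 CPM. Both were lower in iDKO in each pair at 52 DPI, opposite to the T cell receptor genes.

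The cytokine receptors of the list are the IL-2 and IL-15 receptor chain Il2rb, the common gamma chain Il2rg and the IL-7 receptor Il7r, which keep T cells alive. Il2rb was at 17.6 and 45.4 CPM in iDKO at 25 DPI, against 34.3 and 40.7 CPM in control, with 60.4 and 124 CPM in iDKO at 52 DPI, against 49.7 and 26.2 CPM in control. Il7r was at 7.07 and 3.56 CPM in iDKO at 25 DPI, against 14.1 and 3.45 CPM in control, with 6.88 and 14.2 CPM in iDKO at 52 DPI, against 2.34 and 3.68 CPM in control. With ratios of 2.94 and 3.85, Il7r was the member other than Ctla4 with the largest ratio in the replicate 1 pair at 52 DPI. All 3 receptors were lower in the replicate 1 pair at 25 DPI and slightly higher in the replicate 2 pair, at 1.03 to 1.25 times the control, so no direction was shared by both pairs at that time.

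Of the 5 genes of homing, retention and the cell surface, Cxcr6 and Cd69 had a difference between the times above the median of all members, 2.67 on the log2 scale, at 3.69 and 3.46. Itgae, at 2.19, Ccr10, at 1.60, and Thy1, at 0.77 the lowest of any tested member, were below it. Cxcr6, the receptor of the chemokine Cxcl16, was at 15.9 and 4.1 CPM in iDKO at 25 DPI, against 111 and 6.63 CPM in control, with 32.1 and 24.7 CPM in iDKO at 52 DPI, against 21.9 and 4.15 CPM in control. Cd69, a marker of activated and tissue-resident T cells, was at 20.5 and 4.39 CPM in iDKO at 25 DPI, against 87.7 and 6.97 CPM in control, with 24.6 and 25.1 CPM in iDKO at 52 DPI, against 12.1 and 5.01 CPM in control. In both genes the highest library was control replicate 1 at 25 DPI, and the 2 groups at 52 DPI did not overlap. Itgae, the CD103 integrin that binds E-cadherin on keratinocytes, was at 16.7 and 28.7 CPM in iDKO at 25 DPI, against 32.4 and 42.5 CPM in control, with 60.2 and 128 CPM in iDKO at 52 DPI, against 46.3 and 21.7 CPM in control. Its groups overlapped at neither time, with iDKO below control at 25 DPI and above it at 52 DPI.

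The RefSeq promoter of Cxcr6 (GRCm38.p6, chr9:123806227-123806526, plus strand) is shown as that of the second gene called by DESeq2 in the paired fit, with the letters ACCACA, the reverse complement of the RUNX core TGTGGT, in capitals.
Cxcr6: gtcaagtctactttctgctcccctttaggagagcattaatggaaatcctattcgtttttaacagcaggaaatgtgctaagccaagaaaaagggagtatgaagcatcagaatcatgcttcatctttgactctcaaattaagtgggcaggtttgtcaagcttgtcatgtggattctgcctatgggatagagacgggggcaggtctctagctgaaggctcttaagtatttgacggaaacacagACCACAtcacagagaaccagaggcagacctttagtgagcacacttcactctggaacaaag
The match starts 10 bases before the start. TGTGGT on either strand was in 12 of the 25 promoters of members, beside 16.8% of all mouse promoters, and these 12 belong to 12 genes: Cxcr6, Gzma, Gzmb, Gzmc, Il2rg, Il7r, Klrk1, Lat, Lck, Nkg7, Prf1 and Zap70.

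Thy1 did not share the common direction at 25 DPI. Thy1, a surface protein of mouse T cells that other skin cells also carry, was at 41.7 and 129 CPM in iDKO at 25 DPI, against 22.3 and 115 CPM in control, with 28.3 and 168 CPM in iDKO at 52 DPI, against 20.1 and 72.7 CPM in control. It was the one member higher in iDKO in all 4 pairs, and it was higher in the replicate 2 than in the replicate 1 library of every group. Ccr10, the receptor of the keratinocyte chemokine Ccl27a, was at 1.48 and 2.07 CPM in iDKO at 25 DPI, against 6.28 and 2.4 CPM in control, with 0.942 and 2.09 CPM in iDKO at 52 DPI, against 0.704 and 1.72 CPM in control. It was lower in both pairs at 25 DPI and higher in both at 52 DPI, where the groups overlapped. In the strand-specific replicate 2 libraries 14.9% of the counts at Ccr10 were on its own strand, and on that strand there were 3 counts in iDKO against 22 in control at 25 DPI, a normalized ratio of 0.247 with an exact counting interval of 0.0474 to 0.823. At 52 DPI there were 12 in iDKO against 2 in control, a ratio of 4.99 with an interval of 1.11 to 45.9.

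The ligands of these receptors, some made by keratinocytes and others by immune cells, went both ways between genotypes. Of 17 ligand genes tested 9 were higher and 8 lower at 52 DPI, with a median log2 fold change of 0.02 and a range of -0.58 to 1.92, and 7 were higher and 10 lower at 25 DPI, with a median of -0.20 and a range of -1.91 to 0.73. The difference between this list and the members was not tested. Ccl27a was at 593 and 228 CPM in iDKO at 52 DPI, against 645 and 237 CPM in control, Cxcl16 at 129 and 98.4 CPM, against 148 and 115 CPM, and Cdh1 (E-cadherin) at 702 and 937 CPM, against 952 and 942 CPM. The NKG2D ligand H60c was at 62.4 and 18.8 CPM in iDKO at 52 DPI, against 65.7 and 56.0 CPM in control, so it was lower in the pair in which the T cell genes were highest. Icosl, the ligand of Icos, was at 16.4 and 75.6 CPM in iDKO at 52 DPI, against 15.1 and 9.25 CPM in control (edgeR log2 fold change 1.92, SE 0.90, unadjusted p = 0.067, adjusted p = 1).

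Among the cytotoxic genes all 6 had both iDKO libraries above both control libraries at 52 DPI. Prf1, the pore-forming perforin, was at 10.5 and 5.73 CPM in iDKO at 25 DPI, against 21.0 and 12.1 CPM in control, with 34.5 and 58.1 CPM in iDKO at 52 DPI, against 28.0 and 9.4 CPM in control. It was also wholly below control at 25 DPI, with ratios of 0.5 and 0.474 that were close in the 2 pairs, unlike those of most members. Gzmc, a granzyme of dendritic epidermal T cells and other strongly stimulated killer cells, was at 4.68 and 4.35 CPM in iDKO at 25 DPI, against 16.1 and 3.49 CPM in control, with 6.63 and 23.5 CPM in iDKO at 52 DPI, against 4.34 and 1.88 CPM in control. Its log2 fold change at 52 DPI was 2.26 (edgeR, SE 0.95, unadjusted p = 0.0455, adjusted p = 1).

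Gzmb, the main granzyme of CD8+ T cells and NK cells, was at 4.11 and 0.581 CPM in iDKO at 25 DPI, against 34.5 and 0.794 CPM in control, with 3.23 and 3.6 CPM in iDKO at 52 DPI, against 1.63 and 0.549 CPM in control. Control replicate 1 at 25 DPI again held over 8 times the level of any other library. The killer cell granule gene Nkg7 was at 79.2 and 11.4 CPM in iDKO at 25 DPI, against 298 and 14.8 CPM in control, with 65.5 and 55.7 CPM in iDKO at 52 DPI, against 50.7 and 10.2 CPM in control. Klrk1 encodes NKG2D, a receptor of stress ligands, and was at 8.78 and 6.46 CPM in iDKO at 25 DPI, against 48.1 and 10.4 CPM in control (edgeR log2 fold change -1.94, SE 0.79, unadjusted p = 0.0421, adjusted p = 0.9999). Its 52 DPI levels were 20.0 and 30.0 CPM in iDKO, against 16.1 and 7.21 CPM in control. Gzma was rare, with 3 and 0 counts in iDKO against 38 and 2 in control at 25 DPI, and 11 and 2 counts in iDKO against 0 and 1 in control at 52 DPI.

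The RefSeq promoter of Gzmb (GRCm38.p6, chr14:56262285-56262584, minus strand) is printed because, with the largest fold between libraries of the cytotoxic genes tested, it holds more of the searched motifs than the other 2 promoters shown: TGTGGT at 2 places, and the T-box half-site TCACAC, in capitals.
Gzmb: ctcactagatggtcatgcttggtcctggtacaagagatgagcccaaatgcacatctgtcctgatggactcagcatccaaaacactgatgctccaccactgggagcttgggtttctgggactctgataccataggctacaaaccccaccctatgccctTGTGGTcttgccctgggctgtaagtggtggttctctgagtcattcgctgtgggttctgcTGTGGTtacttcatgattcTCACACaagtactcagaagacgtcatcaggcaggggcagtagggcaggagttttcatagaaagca
The TGTGGT matches start 93 and 34 bases before the start and TCACAC 15 bases before it. TCACAC or its reverse complement was in 5 of the 25 promoters of members, beside 14.5% of all. The other motifs searched on both strands were AGATAA of GATA factors, in 2 of 25 beside 11.2%, and the E-box CAGCTG, in 4 of 25 beside 16.3%.

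The regulatory genes Ctla4, Icos and Foxp3 mark regulatory and activated T cells. Ctla4, a receptor that restrains activation, was at 1.48 and 0.435 CPM in iDKO at 25 DPI, against 7.71 and 0.218 CPM in control, with 1.66 and 5.1 CPM in iDKO at 52 DPI, against 0.482 and 0.235 CPM in control. Its ratios at 52 DPI, of 3.45 and 21.7, were the largest of any member in both pairs. The control libraries held 13 and 3 counts there, and the exact counting interval of the ratio of 21.7 was 7.16 to 108. Icos, a costimulatory receptor, was at 6.75 and 22.4 CPM in iDKO at 52 DPI, against 5.38 and 4.62 CPM in control, with 6.39 and 6.6 CPM in iDKO at 25 DPI, against 35.9 and 3.53 CPM in control.

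Foxp3, the master transcription factor of regulatory T cells, could be read in the strand-specific libraries alone. Its exons overlap those of Ccdc22 and Ppp1r3f on the other strand, and 4.39% of the strand-assigned counts at Foxp3 in the replicate 2 libraries were on its own strand. On that strand there were 2 counts in iDKO against 2 in control at 25 DPI. At 52 DPI there were 37 in iDKO against 2 in control, a normalized ratio of 15.4 with an exact counting interval of 1 library against 1 of 3.97 to 132. Cd247 shares 3007 exon bases with Pou2f1 on the other strand, while no annotated gene on the other strand overlaps the exons of Cd27. Cd27 and Cd247 had 42.8% and 56.7% of the strand-assigned counts on their own strand. Their ratios on that strand in the replicate 2 pair at 52 DPI were 7.9 and 5.97. The other 31 members had 92.7% to 100% of such counts on their own strand.

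Set against the summed counts of the 4 CD3 chains, most of the other 31 members were within 1.5-fold of control in 3 of the 4 pairs, the exception being the replicate 1 pair at 25 DPI. In the replicate 1 pair at 52 DPI, 26 of the 30 with counts in both libraries were within 1.5-fold of the control's percentage, with a median ratio of 0.982. In the replicate 2 pair at 52 DPI, 22 of 31 were within 1.5-fold, with a median ratio of 0.883 and extremes of 0.18 for Trbc2 and 3.83 for Ctla4. At 25 DPI the median ratio was 0.843 in the replicate 1 pair, with 15 of 30 within 1.5-fold and extremes of 0.203 for Cd8a and 5.55 for Thy1, and 1.17 in the replicate 2 pair, with 19 of 30. Trdc was at 22.9% and 25.6% of the CD3 counts in iDKO at 52 DPI, against 24.0% and 29.9% in control, and Prf1 at 16.3% and 17.3%, against 17.2% and 15.9%. These percentages overlapped between genotypes, while the CD3 counts themselves differed by over 5-fold in the replicate 2 pair. The counts used ignore strand and leave out reads shared with genes on the other strand. In iDKO replicate 2 at 52 DPI Trdc had 1317 counts, against 2229 on its own strand, and Cd3e 1523, against 2095. The percentages of Trdc here and below are therefore too low.

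Control replicate 1 at 25 DPI differed from the other 7 libraries in these percentages as well. In it Trdc was at 11.7% of the CD3 counts, against 17.2% to 29.9% elsewhere, and Trac at 11.7%, against 3.18% to 5.76%. Cd8a was at 11.1% there, against 2.12% to 5.39% elsewhere, and Gzmb at 6.95%, against 0.926% to 2.45%. Trbc2 did not stand apart in the same way, at 19.5% in that library, against 3.78% to 34.5% elsewhere. iDKO replicate 1 at 25 DPI, its pair, held Trac at 4.02% and Cd8a at 2.25%.

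**Figure D4:**
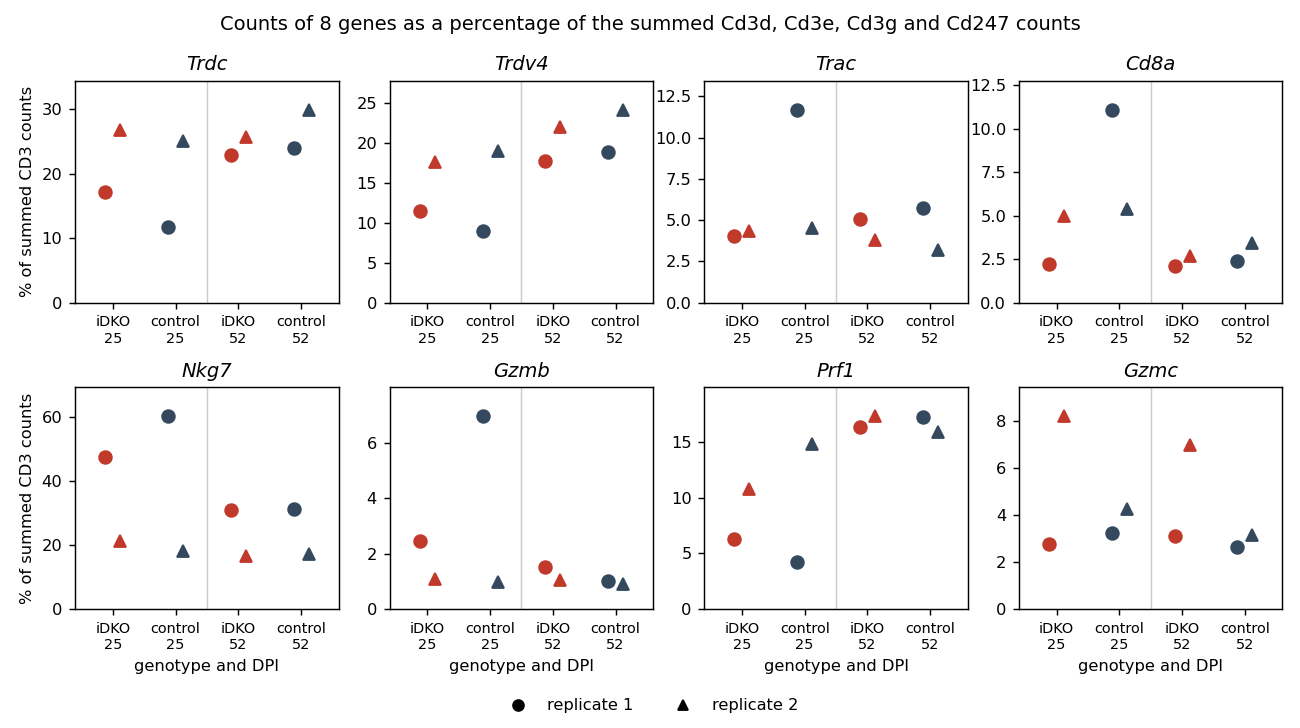
Counts of 8 genes as a percentage of the summed counts of Cd3d, Cd3e, Cd3g and Cd247 (axes from 0) in each library, with iDKO in red, control in dark blue, circles for replicate 1 and triangles for replicate 2. Control replicate 1 at 25 DPI is lowest for Trdc (11.7%) and highest for Trac (11.7%), Cd8a (11.1%) and Gzmb (6.95%), while at 52 DPI iDKO and control of the same replicate lie close, other than for Gzmc and Gzmb.

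Some percentages differed by replicate number rather than by genotype. Nkg7 was at 16.6% to 21.4% of the CD3 counts in the 4 replicate 2 libraries and at 30.9% to 60.1% in the 4 replicate 1 libraries. Itgae was at 36.6% to 54.0% in replicate 2 and at 6.52% to 28.4% in replicate 1. The pair ratios compare such genes within a replicate number. The edgeR test with 1 mean per group and the counts of groups without overlap do not.

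Levels can be set between genes only per length of transcript. By the median over the 8 libraries of CPM per kilobase of exon, Nkg7 was highest at 58.2, followed by Cd7 at 31.3, Cd3g at 24.1, Trbc2 at 22.0 and Thy1 at 19.1. The ranges over libraries of these 5 overlapped, from 6.54 to 94.6 for Cd3g and from 14.0 to 87.6 for Cd7. Trdc was at 8.76 and Trac at 8.61, and which was higher changed with the library: Trdc was at 15.1 and Trac at 61.9 in control replicate 1 at 25 DPI, and Trdc at 22.3 and Trac at 13.6 in iDKO replicate 2 at 52 DPI. These levels of Trdc and Cd7 leave out the reads shared with genes on the other strand and are therefore too low. In control replicate 2 at 25 DPI Cd7 had 1252 such counts, against 1802 on its own strand. Foxp3, at 0.106, and Gzma, at 0.104, were lowest. The level of Foxp3 ignores strand, and 4.39% of its strand-assigned counts in the replicate 2 libraries were on its own strand.

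Between the times, the 34 tested members were on balance higher at 52 than at 25 DPI in iDKO, where 30 were higher and 4 lower with a median log2 fold change of 1.25. In control 2 were higher and 32 lower, with a median of -1.74. Over all tested genes the medians were -0.12 in iDKO and -0.14 in control, and edgeR called 0 genes in both, with 298 and 269 genes at an unadjusted p under 0.05. Without control replicate 1 at 25 DPI the control median was 0.18. Prf1 was the member called in DESeq2 with the replicate number as a block over both times, at 2.65 in iDKO (SE 0.61, adjusted p = 0.0147), among 13 genes called higher, or 0.0729%. Prf1 was at 34.5 and 58.1 CPM at 52 DPI, against 10.5 and 5.73 CPM at 25 DPI, in iDKO. In control edgeR without a filter on low counts called Cd8a, at -3.31 (SE 0.84, adjusted p = 0.0445), Cd8b1, at -3.72 (SE 0.84, adjusted p = 0.0115), and Gzmb, at -3.98 (SE 0.96, adjusted p = 0.0262), lower at 52 than at 25 DPI, among 60 genes called lower, or 0.185%. All 3 have by far their highest level in control replicate 1 at 25 DPI. Across both times 17 members were higher and 17 lower in iDKO, with a median of 0.0013. With the replicate block within time 25 were higher and 9 lower, and with 1 library left out the split ran between 33 higher and 1 lower, without control replicate 1 at 25 DPI, and 2 higher and 32 lower, without iDKO replicate 2 at 52 DPI.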

How the data were processed

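The deposited tables, 1 for each library, hold raw read counts for every gene as STAR writes them: a column that ignores strand and 1 column for either strand. The submitters' processing notes list Trimmomatic 0.35, STAR 2.5.2a, FastQC 0.11.9 and DESeq2 1.24.0, and the builds GRCm38 and mm10; their settings are not stated in the sources used. RNA was taken with Trizol and amplified by a SMART-seq kit of Clontech, per the labels' protocols. Analyses took the strand-blind column. In replicate 2 libraries 95.4% to 95.7% of strand-assigned counts lay on the second strand, in replicate 1 libraries 49.8% to 49.97%, so the second-strand column of replicate 2 was an alternative.

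The edgeR 4.0.16 quasi-likelihood test (R 4.3.3) used filterByExpr, TMM and 1 mean per group over all 8 libraries, with 4 residual degrees of freedom (5 for time plus genotype). Benjamini-Hochberg adjustment covered all 17839 tested genes at a threshold of 0.05. Alternatives were DESeq2 1.42.0, limma 3.58.1, other scalings, no filter, replicate blocks and each library left out; leaving libraries out of the DESeq2 fit with a block was added after seeing the data. The p-values measure the spread between 2 libraries per group, which also differ in strandedness. Same-numbered libraries deviated together from their group means, with correlations of 0.395 to 0.793 in the 6 group pairs, also between groups at different times. Replicate number was therefore treated as pairing libraries in the pair ratios and in the fits with a block. The main edgeR test with 1 mean per group did not use this pairing. Symbols, exon lengths and overlaps came from a GRCm38 annotation, and 9 list symbols had no match. The text names all members and, of the other lists, up to 4 genes with the smallest unadjusted p in a genotype comparison; others named, such as Tcrg-V6, Sox13, Gata3, Bcl11b and the ligands, were chosen after their values were seen. The members and lists were chosen with earlier results of these data known. Intervals are exact at 95% and cover counting error only. The methods were tested on simulated data.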

Additional observations from a re-analysis of the deposited data

Results flagged for a closer look

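In 23 members both iDKO libraries at 25 DPI were below their paired control libraries and both at 52 DPI above theirs, so the direction of the genotype effect differed between the times in every library pair. The libraries of the 2 times also differed in Ddx3y and Xist, so sex and time cannot be told apart here. The difference of the log2 fold changes, 52 minus 25 DPI, is given for each. In edgeR's quasi-likelihood test of this difference the adjusted p was 1 for all 23, and 7 had an unadjusted p under 0.05. Among receptor chains it was 3.15 for Cd3d, 1.93 for Cd3e, 2.89 for Cd3g, 2.61 for Cd247, 3.83 for Trac, 0.85 for Trbc2 and 2.12 for Trdc. Among co-receptors it was 4.38 for Cd8a, 2.81 for Cd8b1, 3.65 for Cd4, 1.87 for Cd5 and 2.69 for Cd7. Among signalling genes it was 2.58 for Lck, 2.18 for Zap70 and 3.11 for Lat. Among homing genes it was 3.69 for Cxcr6, 1.60 for Ccr10, 2.19 for Itgae and 3.46 for Cd69. The value for Ccr10 is uncertain, since 14.9% of its counts in the replicate 2 libraries were on its own strand. Among cytotoxic genes it was 4.56 for Gzmb, 2.34 for Prf1, 2.78 for Nkg7 and 3.04 for Klrk1. The share of such genes among all with counts in every library was 8.21%.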

How the results depend on the processing

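edgeR with 1 mean per group called 0 genes in each comparison, and limma-voom, RLE size factors, library totals without TMM, the second-strand column and edgeR with the replicate block also called 0, except 1 gene across both times with the block within time. DESeq2 called 2 genes at 25 DPI, 1 at 52 DPI, 8 across both times, 11 between times in iDKO and 13 in control. Without the filter on low counts edgeR called 8 at 25 DPI, 25 at 52 DPI, 16 across both times, 19 in the difference between times, 37 between times in iDKO and 62 in control. DESeq2 with the replicate block called 96 at 25 DPI, 35 at 52 DPI, 70 across both times, 38 in the difference, 26 between times in iDKO and 37 in control. The cause of these differences was not tested. With the replicate block within time, the members' median in edgeR was -1.04 at 25 DPI, 1.35 at 52 DPI and 2.46 in the difference. Of members, DESeq2 called 3 in the difference with the block within time, and 1 between times in iDKO with the block over both times. Without the filter edgeR called 3 between times in control, and no other setting with all 8 libraries called any. With 1 library left out, edgeR called 0 genes and 0 members in each comparison, and the DESeq2 fit with the block called 0 to 22 members in the difference. The members' median then ran over -1.91 to 0.25 at 25 DPI, 0.78 to 2.06 at 52 DPI, -0.48 to 0.77 across both times, 1.06 to 3.35 in the difference, 0.67 to 1.75 between times in iDKO and -2.37 to 0.18 in control, turning at 25 DPI and in control without control replicate 1 at 25 DPI. Members whose log2 fold change turned at 25 DPI ran over these ranges: Cd2 -2.70 to 1.07, Cd27 -1.46 to 0.32, Cd28 -2.64 to 1.03, Cd3d -2.92 to 0.49, Cd3e -1.50 to 0.25, Cd3g -2.94 to 0.74, Cd5 -1.23 to 0.25, Cd69 -3.36 to 0.79, Cd8b1 -5.21 to 1.97, Ctla4 -3.09 to 2.03, Cxcr6 -3.78 to 0.54, Gzmb -4.84 to 1.48, Gzmc -1.83 to 0.35, Icos -2.46 to 0.86, Il2rb -1.09 to 0.31, Il2rg -1.24 to 0.74, Il7r -1.41 to 0.58, Nkg7 -3.72 to 1.57, Thy1 -0.69 to 1.94, Trac -3.70 to 0.25, Trbc2 -2.61 to 1.52, Trdc -1.44 to 0.034. At 52 DPI they were Ccr10 -0.35 to 1.09, Cd8b1 -0.21 to 2.24, Il2rg -0.15 to 1.41, Thy1 -0.71 to 2.29, Trbc2 -0.25 to 0.46. The cause was not tested. A left-out library leaves 1 sample in its group, assumed to vary like the others. The edgeR fits with 1 library left out had no block, so that 1 sample was set against both libraries of the other group, across replicate numbers. A turn at 25 DPI without control replicate 1 therefore mixes genotype with replicate number.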
